A study of Mus musculus with 21 samples.

Results

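Lung tumours of mice given NNK, a nicotine-derived nitrosamine of tobacco, were compared with normal lung of mice given the vehicle. The comparison takes in 6 of the 21 libraries of the series, the 3 labelled NNK and the 3 labelled Control, and all genes of the count table that passed a filter on low counts. All mice were female A/J, a strain in which chemical carcinogens readily cause lung tumours, and were taken at 22 weeks. NNK mice had received 1 intraperitoneal dose of 100 mg/kg in 0.1 ml of saline, and Control mice saline alone. RNA of the NNK group came from dissected tumours pooled from 3 mice, and RNA of the Control group from normal lung. NNK exposure and tumour tissue therefore cannot be told apart. No label ties a library to its own mouse, so p-values measure the spread between these libraries, which may be in part technical. The libraries are called Control 1 to 3 and NNK 1 to 3, after the replicate numbers.

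NNK is activated in the lung by cytochrome P450 enzymes to species that alkylate DNA. Active RAS proteins signal through RAF, MEK and ERK, and ERK induces transcription factors of the ETS family together with feedback inhibitors of its own pathway, the DUSP phosphatases and the Sprouty and Spred proteins. Most lung tumours of mice given such carcinogens are adenomas that resemble alveolar type 2 cells, the surfactant-making cells of the alveolus. Mutations were not analysed here.

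Counts were 13.3 to 15.6 M per Control library and 14.6 to 15.0 M per NNK library. Both groups held lung markers at high levels. The type 2 cell surfactant gene Sftpc stood at 15661 to 20172 CPM in Control and 21856 to 25001 CPM in NNK, and the club cell secretoglobin Scgb1a1 at 26475 to 29236 CPM in Control and 12728 to 18827 CPM in NNK. Control lung also held heart muscle RNA, with 572 to 602 CPM summed over 10 heart muscle markers against 124 to 274 CPM in NNK. With Myh7, which went the other way, the sums were 756 to 802 CPM against 461 to 554 CPM. Its close relative Myh6 is among the 10. In bulk RNA, fewer cells of a type and less RNA per cell cannot be told apart. The first principal component of these 6 libraries, with 49.9% of their variance, separated NNK from Control, and the second, with 21.2%, set Control 3 and NNK 3 apart from the rest.

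Of 15770 genes tested, edgeR called 2064 (13.1%) at an adjusted p under 0.05. In NNK 1019 (6.46%) were higher and 1045 (6.63%) lower. At least 2-fold changes were found for 312 genes (1.98%), 199 higher genes (1.26%) and 113 lower genes (0.717%). The larger changes were thus mostly increases, with 71 called genes at least 4-fold higher and 27 at least 4-fold lower, while 586 of the higher and 743 of the lower genes changed less than 1.5-fold. The median log2 change was 0.51 among genes called higher, -0.40 among those called lower and -0.02 over all genes tested. In 1000 of the 1019 higher genes and 1026 of the 1045 lower genes the 3 NNK libraries did not overlap with the 3 Control libraries. Over all genes tested, called or not, 17.3% lay higher and 20.5% lower without overlap. An unadjusted p under 0.05 was found for 4753 of the 15770 genes, the background for such counts in the lists below.

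The number of calls depended on single libraries. It was 874, 502 and 1856 without Control 1, 2 and 3, and 490, 1508 and 1058 without NNK 1, 2 and 3. A set of 351 genes, 216 higher and 135 lower, was called with all libraries and again with each of the 6 left out in turn. It is 17.0% of all calls, and 64 of its members were at least 2-fold higher and 11 at least 2-fold lower. Below, a gene is called, or not called, by edgeR in the fit to all 21 libraries unless another fit is named, and genes named as called that lost the call in a leave-out are given with the libraries concerned. Values are counts scaled to library size (CPM) in libraries 1, 2 and 3 of each group, and changes are log2 fold changes of NNK over Control with their standard error. The plot of all genes tested shows this distribution.

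**Figure D1:**
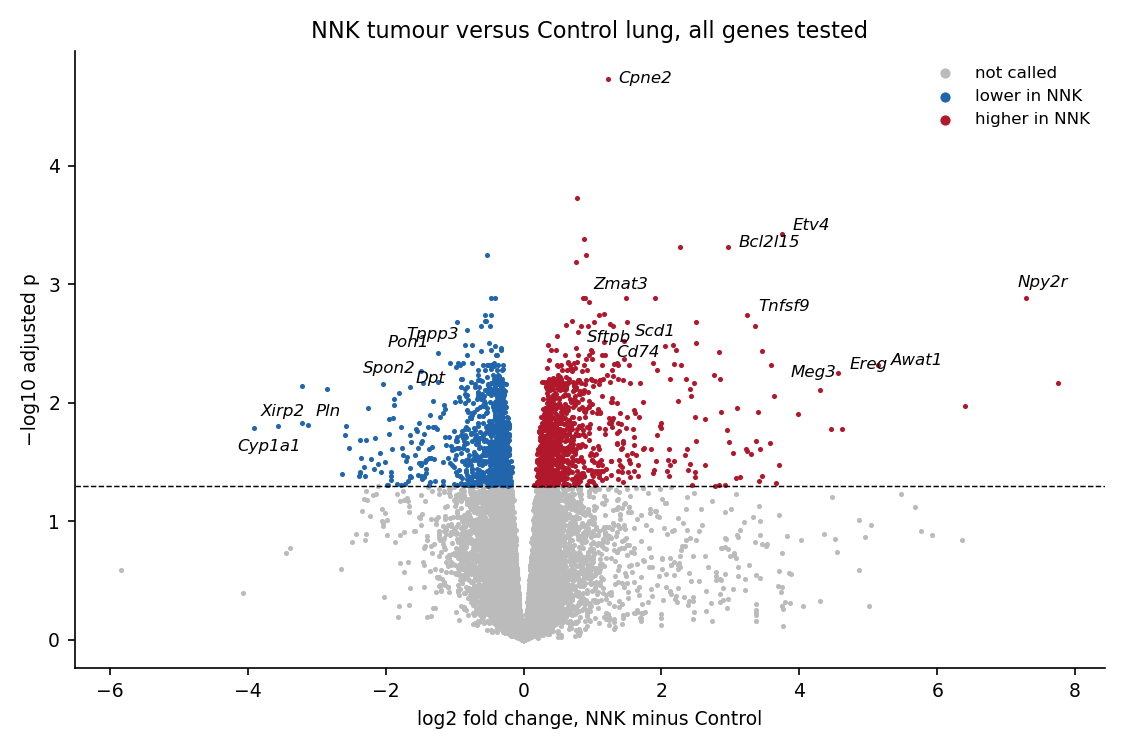
Each point is 1 gene tested, with the log2 fold change of NNK over Control on the x axis and −log10 of the adjusted p on the y axis; the dashed line marks an adjusted p of 0.05. Called genes are red (1019 higher in NNK) and blue (1045 lower), the far right point with a label is Npy2r at 7.29, and the labelled muscle genes Xirp2 and Pln lie at -3.56 and -3.13.

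The gene lists described next cover epithelial, immune and stromal cell types, growth signalling and metabolism. The lists with the highest shares of members called higher were the alveolar type 2 markers (11 of 17), the Dlk1-Meg3 locus (3 of 5), neutrophil markers (9 of 16), MHC class II genes (6 of 12) and ERK targets (8 of 18). Those with the highest shares called lower were club cell markers (9 of 12), heart muscle markers (8 of 11), red cell markers (3 of 5) and fibroblast markers (9 of 17).

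**Figure D2:**
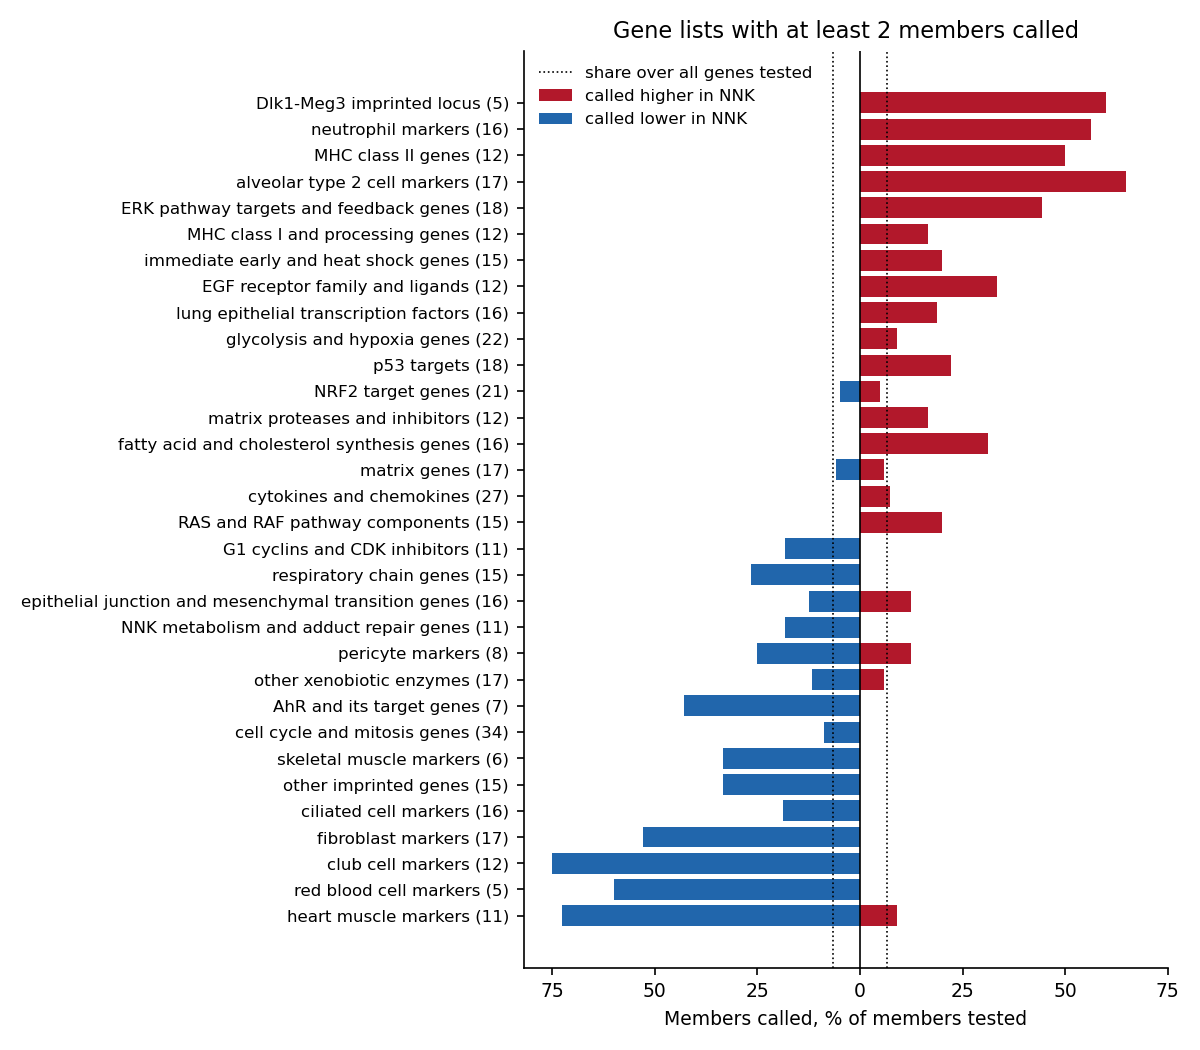
For each gene list with at least 2 members called, red bars give the percent of its tested members called higher in NNK and blue bars the percent called lower; the number tested stands in brackets and the dotted lines mark the shares over all genes, 6.46% and 6.63%. Lists are ordered by their median log2 change, with the Dlk1-Meg3 locus at the top and heart muscle markers at the bottom.

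The non-coding RNAs of the Dlk1-Meg3 imprinted locus on chromosome 12 rose together, and their levels ranked the NNK libraries in the same order. Meg3, Rian and Mirg are transcribed from the maternal chromosome in the same direction, and are hosts of a large cluster of microRNAs. Meg3 (chromosome 12, 109541001 to 109571726, GRCm38) stood at 10.01, 11.9 and 14.4 CPM in Control and 256, 121 and 339.5 CPM in NNK (4.30 ± 0.87, adjusted p = 0.00777). Rian (chromosome 12, 109603940 to 109661716) stood at 6.37, 7.28 and 5.42 CPM in Control and 80.2, 43.1 and 113 CPM in NNK (3.63 ± 0.76, adjusted p = 0.00882), and Mirg (chromosome 12, 109729764 to 109749460) at 0.152, 0.255 and 0.194 CPM in Control and 2.81, 1.64 and 5.46 CPM in NNK (3.98 ± 0.91, adjusted p = 0.0123). For all 3 RNAs NNK 3 was highest and NNK 2 lowest, and even NNK 2 lay 8.39 times above the highest Control library in Meg3 and 5.93 times in Rian. The paternally expressed Dlk1, which codes for a transmembrane protein of the Notch ligand family, was at 0.0759, 0.0638 and 0.194 CPM in Control and 6.89, 0.410 and 1.05 CPM in NNK and was not called by edgeR (adjusted p = 0.182) but was by DESeq2, with most of its RNA in NNK 1. Begain, at the edge of the locus, stood at 2.73, 2.36 and 3.29 CPM in Control and 1.94, 1.78 and 2.17 CPM in NNK and was not called either, while Rtl1 and Dio3 did not pass the filter. Calls depended on 1 library for Mirg without Control 2, with a highest adjusted p of 0.0555. Meg3 and Rian kept the call in all 6 such fits. Meg3 was also above all Control libraries in each of the 4 groups given both NNK and LPS, a bacterial cell wall product, with or without dietary silibinin (Sil) and indole-3-carbinol (I3C). Its range was 74.0 to 409 CPM in NNK_LPS and 37.9 to 69.5 CPM in NNK_LPS_Sil_I3C, against 3.41 to 45.2 CPM in LPS alone.

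RefSeq (GRCm38.p6) places 3 mature microRNAs inside Meg3, 6 inside Rian and 26 inside Mirg. Mature microRNAs were not measured in these libraries. The sequences below are products whose host RNAs rose, from each of the 3 hosts, 5′ to 3′ with the seed (bases 2 to 8) in capitals. The Meg3 product is miR-770-5p, the Rian product miR-370-3p, and the others lie in Mirg. Only miR-453 and miR-496a-5p, of all 35 products, share a seed.
miR-770-5p: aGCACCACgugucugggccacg
miR-370-3p: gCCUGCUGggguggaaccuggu
miR-134-5p: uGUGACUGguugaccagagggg
miR-154-5p: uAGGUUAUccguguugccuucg
miR-453: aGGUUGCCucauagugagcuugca
miR-496a-5p: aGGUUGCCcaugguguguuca
miR-409-3p: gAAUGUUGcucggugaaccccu
miR-410-3p: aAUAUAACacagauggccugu

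Several other imprinted genes fell. Of 15 tested, edgeR called 5 lower and none higher, with a median of -0.44, and 13 had a negative change. DESeq2 called 1 higher, Igf2r, and edgeR with the 6 libraries alone called 8 lower. Peg3, a paternally expressed zinc finger gene, stood at 44.6, 39.5 and 37.1 CPM in Control and 19.7, 25.6 and 23.5 CPM in NNK (-0.82 ± 0.17, adjusted p = 0.00858). Ndn stood at 17.1, 17.2 and 13.4 CPM in Control and 8.83, 9.16 and 9.27 CPM in NNK (-0.81 ± 0.18, adjusted p = 0.0119). The maternally expressed non-coding RNA H19 was at 5.31, 3.96 and 4.52 CPM in Control and 1.14, 1.85 and 1.45 CPM in NNK (-1.63 ± 0.43, adjusted p = 0.0215), the epsilon-sarcoglycan gene Sgce changed by -0.44 ± 0.12, adjusted p = 0.0234, and the cyclin-dependent kinase inhibitor gene Cdkn1c by -0.62 ± 0.18, adjusted p = 0.0312. Both maternally and paternally expressed genes are thus among the 5, and in each the NNK libraries lay below all Control libraries. Leave-outs ended the call for Peg3 without NNK 1, for Ndn without Control 2 or NNK 1, for H19 and Sgce without Control 1, Control 2, NNK 1 or NNK 3, for Cdkn1c without Control 1, Control 2, NNK 1, NNK 2 or NNK 3, with a highest adjusted p of 0.128 (Cdkn1c). The count of lower genes was 2, 1, 5, 0, 4 and 2 without Control 1, 2, 3 and NNK 1, 2, 3.

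Many targets and feedback inhibitors of ERK rose, and none fell. Of 18 tested, 8 were called higher, 16 had a positive change and the median was 0.50. The largest change was that of Etv4, an ETS-family transcription factor (chromosome 11, 101769742 to 101785371), at 0.379, 0.511 and 0.452 CPM in Control and 7.36, 2.80 and 8.28 CPM in NNK (3.75 ± 0.42, adjusted p = 0.000378). NNK 2 was lowest of the 3 tumour libraries, and still 5.49 times the highest Control library. The MAPK phosphatase gene Dusp4 was at 9.48, 7.79 and 10.1 CPM in Control and 28.6, 20.6 and 25.6 CPM in NNK (1.45 ± 0.28, adjusted p = 0.00644), and Dusp6, whose product acts on ERK itself, at 93.2, 99.1 and 78.8 CPM in Control and 141, 124 and 142 CPM in NNK (0.58 ± 0.15, adjusted p = 0.0186). The 3 NNK libraries were close to each other in both genes.

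Some of the Sprouty and Spred genes, which restrain RAS and RAF activation, also rose. Spred2 was at 33.4, 29.2 and 26.2 CPM in Control and 44.00, 42.9 and 51.99 CPM in NNK (0.65 ± 0.11, adjusted p = 0.00451), Spred1 at 82.8, 84.1 and 77.6 CPM in Control and 121, 101 and 118 CPM in NNK (0.48 ± 0.10, adjusted p = 0.00843) and Spry2 at 24.4, 21.96 and 21.9 CPM in Control and 32.6, 36.2 and 37.5 CPM in NNK (0.64 ± 0.16, adjusted p = 0.0167). Spry4 changed by 0.85 ± 0.26, adjusted p = 0.0419, while Spry1 and Spred3 were not called (log2 changes of 0.32 and 0.28). In the called genes no NNK library overlapped with Control. The early growth response factor Egr1 stood at 11.98, 16.9 and 12.3 CPM in Control and 20.1, 36.2 and 58.7 CPM in NNK (1.48 ± 0.36, adjusted p = 0.0163). Of the transcription factors not called, Etv5 was at 164, 154 and 242 CPM in Control and 236, 252 and 303 CPM in NNK (adjusted p = 0.0668) and Myc at 7.51, 7.21 and 7.23 CPM in Control and 14.2, 9.30 and 11.2 CPM in NNK (adjusted p = 0.0859). DESeq2 called Etv5, and edgeR called Myc with the 6 libraries alone and with libraries 1 to 8 alone. The call was lost for Dusp6 without Control 1, Control 3, NNK 1 or NNK 3, for Spry2 without Control 2 or NNK 3, for Spry4 whichever library was left out, for Egr1 without Control 1 or NNK 3, with a highest adjusted p of 0.14 (Spry4). Etv4, Dusp4, Spred1 and Spred2 kept the call in all 6 such fits. Other fits ended the call for Spry4 with no filter on low counts, for Egr1 with the 6 libraries alone in the fit or libraries 1 to 8 alone in the fit. The count of higher genes in the list was 5, 6, 7, 6, 7 and 4 without Control 1, 2, 3 and NNK 1, 2, 3. It was 7 without the filter on low counts, 10 with DESeq2, 9 with the 6 libraries alone and 11 with libraries 1 to 8 alone.

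RefSeq promoters (250 bases before to 50 after the start) were in hand for 4 of the 8 called genes, Spred1, Spred2, Dusp6 and Spry2. None held the AP-1 letters TGANTCA or the ETS letters CCGGAAGT on either strand. Over all 32851 promoters these stood in 7.81% and 3.89%, and over those of tested genes in 5.76% and 6.85%. Among promoters of genes called higher the shares were 6.44% and 5.17%, and among those of genes called lower 4.83% and 8.15%, as a description only. At such shares 4 promoters would most often hold neither motif, so their lack of sites cannot show a difference.

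Of the EGF receptor family, 3 ligands and 1 receptor were called higher, 4 of the 12 genes tested, with a list median of 0.34. None was called lower by edgeR in the fit to all libraries and 1, Erbb4, was by DESeq2. Epiregulin, Ereg (chromosome 5, 91074622 to 91093646), stood at 0.379, 0.255 and 0.258 CPM in Control and 12.04, 1.71 and 7.43 CPM in NNK (4.55 ± 0.83, adjusted p = 0.00564). Amphiregulin, Areg, encoded nearby (chromosome 5, 91139599 to 91148432), was at 5.69, 4.21 and 2.13 CPM in Control and 20.8, 9.91 and 16.9 CPM in NNK (1.99 ± 0.48, adjusted p = 0.0164). Both were lowest among the tumours in NNK 2, which in Ereg lay 4.35 times below the next library. Tgfa was at 26.1, 21.00 and 21.1 CPM in Control and 36.8, 36.98 and 26.4 CPM in NNK (0.56 ± 0.14, adjusted p = 0.0185), and of the receptors Erbb2 was called, at 52.8, 47.9 and 53.1 CPM in Control and 65.7, 64.04 and 65.5 CPM in NNK (0.35 ± 0.08, adjusted p = 0.013). Egfr stood at 92.5, 91.4 and 63.8 CPM in Control and 104, 113 and 53.9 CPM in NNK and was not called (0.13). Leaving out single libraries ended the call for Areg without Control 2 or NNK 1, for Tgfa without Control 2, Control 3, NNK 1 or NNK 2, for Erbb2 without Control 2, with a highest adjusted p of 0.0878 (Tgfa). Ereg kept the call in all 6 such fits. The count of higher genes was 4, 1, 3, 2, 3 and 4 in the same 6 leave-outs. In LPS lung without NNK, Ereg was at 5.94 to 11.6 CPM and Etv4 at 1.23 to 1.58 CPM, both above all Control libraries.

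The core components of the RAS and RAF pathway changed little. Of 15 tested 3 were called, all slightly higher, namely the adaptor genes Grb2 (0.30 ± 0.07, adjusted p = 0.0141) and Shc1 (0.36 ± 0.10, adjusted p = 0.029) and the MEK gene Map2k2 (0.34 ± 0.09, adjusted p = 0.0188). With 1 library left out, the call was lost for Grb2 without Control 2, NNK 1 or NNK 3, for Shc1 without Control 1, Control 2, NNK 1 or NNK 3, for Map2k2 without Control 2, Control 3 or NNK 1, with a highest adjusted p of 0.127 (Shc1).

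Among 18 p53 targets 4 were called higher and none lower, with 16 positive changes and a median of 0.21. Zmat3, an RNA-binding protein induced by p53, was at 24.7, 22.7 and 22.5 CPM in Control and 50.3, 34.99 and 41.2 CPM in NNK (0.86 ± 0.12, adjusted p = 0.0013). The stress-induced Sesn2 was at 15.5, 16.7 and 12.3 CPM in Control and 42.9, 25.4 and 32.2 CPM in NNK (1.18 ± 0.20, adjusted p = 0.00397) and the TGF-beta family ligand Gdf15 at 2.50, 2.36 and 1.61 CPM in Control and 5.48, 4.03 and 5.52 CPM in NNK (1.22 ± 0.23, adjusted p = 0.00585). NNK 1 was highest in Zmat3 and Sesn2, and no NNK library overlapped with Control in any of these. The p53 ubiquitin ligase gene Mdm2 rose only slightly (0.23 ± 0.07, adjusted p = 0.0422). Cdkn1a, which codes for the cell cycle inhibitor p21, stood at 113, 106 and 60.5 CPM in Control and 281, 170.2 and 117 CPM in NNK, with no overlap but wide spread in both groups, and missed the threshold (1.02 ± 0.37, adjusted p = 0.0797), though it was called by DESeq2 and with the replicate number as a block. Higher values without overlap were found in 17.3% of all genes tested. Calls depended on 1 library for Mdm2 without Control 1, Control 2, Control 3, NNK 1 or NNK 2, with a highest adjusted p of 0.124. Zmat3, Sesn2 and Gdf15 kept the call in all 6 such fits. Further settings ended the call for Mdm2 with no filter on low counts. The count of higher genes was 3, 3, 3, 3, 3 and 4 in the same 6 leave-outs, and 6 with DESeq2.

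**Figure D3:**
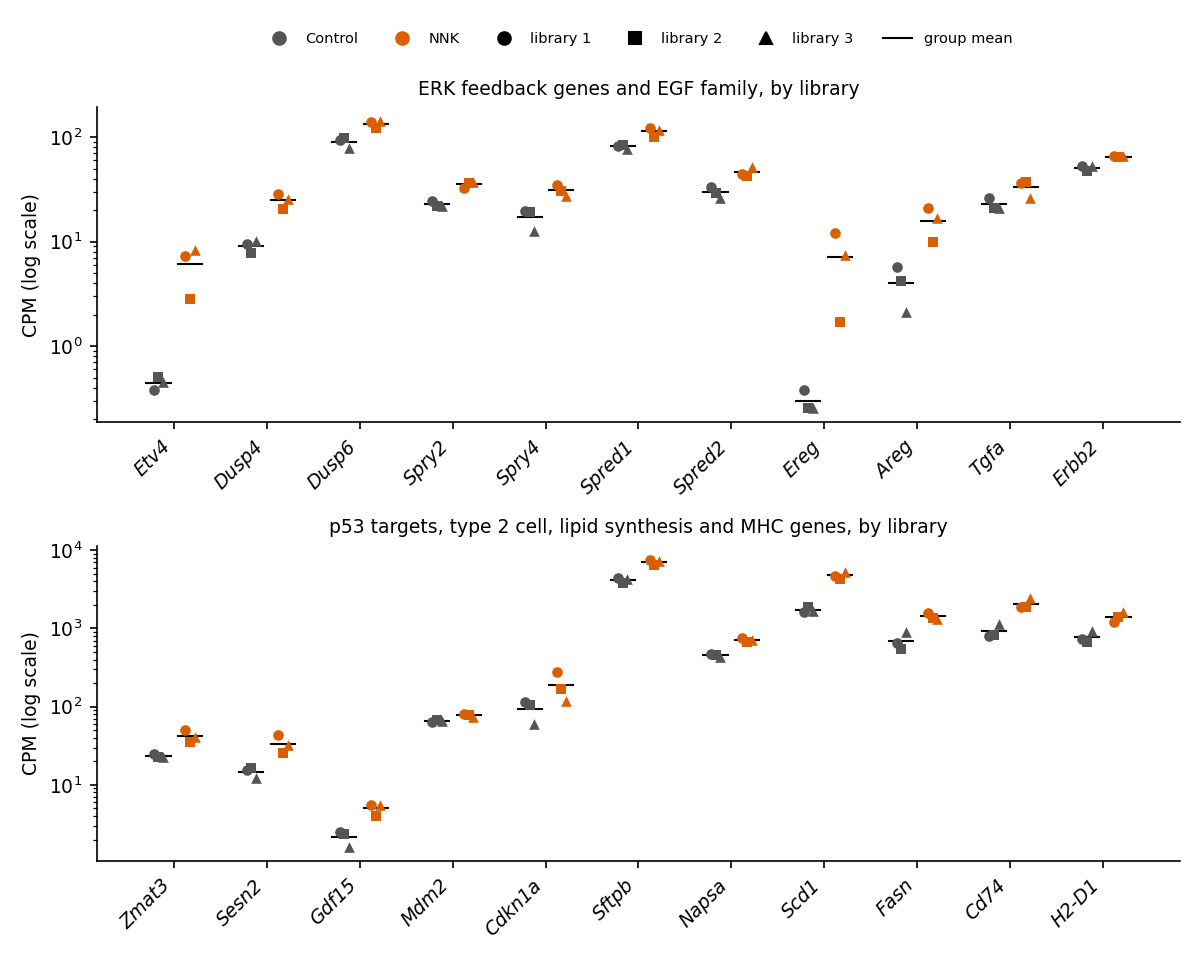
CPM of each gene on a log axis in the 3 Control libraries (grey) and the 3 NNK libraries (orange), with the library number as the marker shape and the group mean as a line. In Etv4, Ereg and Areg NNK 2 is the lowest tumour library and still above every Control library, and in the lower panel all genes but Cdkn1a passed the edgeR test.

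Proliferation genes were not called higher. Of 34 cell cycle and mitosis genes none was called higher and 3 lower, with 29 negative changes and a median of -0.32. Over all genes tested 6.46% were called higher and 6.63% lower. Few calls are therefore due in this list and in the shorter lists that follow. The replication clamp gene Pcna was at 93.3, 101 and 95.7 CPM in Control and 79.5, 77.4 and 74.1 CPM in NNK (-0.33 ± 0.07, adjusted p = 0.011), the replicative helicase gene Mcm5 changed by -0.48 ± 0.12, adjusted p = 0.015, and the spindle gene Nusap1 by -0.83 ± 0.21, adjusted p = 0.0196. The proliferation marker Mki67 was at 34.9, 55.99 and 77.3 CPM in Control and 44.9, 34.9 and 47.98 CPM in NNK and was not called (adjusted p = 0.198), and Top2a at 26.9, 44.8 and 48.5 CPM in Control and 28.2, 17.8 and 28.5 CPM in NNK (adjusted p = 0.06), which DESeq2 called lower. Control 1 lay low in both. The count of lower genes was 8, 0, 2, 2, 1 and 2 without Control 1, 2, 3 and NNK 1, 2, 3. Leave-outs ended the call for Pcna without Control 2, for Mcm5 without Control 2 or NNK 2, for Nusap1 without Control 2, Control 3, NNK 1, NNK 2 or NNK 3, with a highest adjusted p of 0.0776 (Nusap1). Of 11 G1 cyclin and CDK inhibitor genes, Ccnd2 (-0.43 ± 0.12, adjusted p = 0.024) and Cdkn1c were lower. Ccnd1 was at 230.3, 249 and 264 CPM in Control and 301, 311 and 366 CPM in NNK and was not called (0.40), but was with the 6 libraries alone. None of 17 lung tumour suppressor genes and none of 13 WNT genes was called by edgeR in the fit to all libraries. In each list 5 had an unadjusted p under 0.05, against 4753 of all 15770 genes tested. DESeq2 called 2 and 1, and edgeR called 2 and 3 with the 6 libraries alone and 3 and 3 with libraries 1 to 8 alone. Of 12 Notch genes Notch1 was higher (0.45 ± 0.14, adjusted p = 0.0466), and of 6 YAP targets Ankrd1 was lower (-1.16 ± 0.37, adjusted p = 0.0495). The call was lost for Ccnd2 without Control 1, Control 2, NNK 1 or NNK 3, for Notch1 and Ankrd1 whichever library was left out, with a highest adjusted p of 0.175 (Ankrd1). Among other settings, the call was lost for Ankrd1 with relative log expression size factors or no filter on low counts.

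Alveolar type 2 cell markers were higher throughout. Of 17 tested, all had a positive change, 11 were called, and the median was 0.62. Their summed level was 34451 to 41048 CPM in Control and 49645 to 59628 CPM in NNK. Surfactant protein B, Sftpb, was at 4401, 3772 and 4259.8 CPM in Control and 7485, 6441 and 7199 CPM in NNK (0.76 ± 0.13, adjusted p = 0.00345). The phosphate transporter Slc34a2 was at 3626, 3438 and 3559.8 CPM in Control and 6516, 5498 and 5669.9 CPM in NNK (0.73 ± 0.15, adjusted p = 0.00701) and the surfactant lipid transporter Abca3 at 1096, 990.4 and 1191 CPM in Control and 1608, 1456 and 1538 CPM in NNK (0.49 ± 0.10, adjusted p = 0.00691). The tumour libraries were tightly grouped in each. The surfactant-processing proteases Napsa (0.64 ± 0.11, adjusted p = 0.00463) and Ctsh (0.81 ± 0.17, adjusted p = 0.0079), the surfactant phospholipid enzyme Lpcat1 (0.70 ± 0.13, adjusted p = 0.00535), the mucin gene Muc1 (0.62 ± 0.12, adjusted p = 0.00682) and Egfl6 (0.91 ± 0.17, adjusted p = 0.00647) rose as well. Sftpc, the most abundant, was at 19787, 20172 and 15661 CPM in Control and 25001, 21856 and 22977 CPM in NNK and missed the threshold (0.33 ± 0.18, adjusted p = 0.239). Sftpb, Slc34a2, Abca3, Napsa, Ctsh, Lpcat1, Muc1 and Egfl6 kept the call whichever of the 6 libraries was left out. The count of higher markers was 9, 8, 8, 8, 11 and 8 in the same 6 leave-outs.

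Some genes of fatty acid synthesis, which supplies surfactant lipid in type 2 cells, rose. Of 16 genes of fatty acid and cholesterol synthesis 5 were called, all higher and all of the fatty acid branch, while the list median was 0.12 and 4 genes had a negative change. The stearoyl-CoA desaturase gene Scd1 was at 1629.9, 1880.4 and 1686 CPM in Control and 4705, 4349.8 and 5248 CPM in NNK (1.46 ± 0.23, adjusted p = 0.00298) and the fatty acid synthase gene Fasn at 650.3, 549 and 892 CPM in Control and 1597, 1365 and 1335 CPM in NNK (1.04 ± 0.20, adjusted p = 0.00656). The lowest tumour library in Scd1 was 2.31 times the highest Control library. The gene of acetyl-CoA carboxylase, Acaca (0.53 ± 0.13, adjusted p = 0.0167), that of the acetyl-CoA-supplying enzyme, Acly (0.41 ± 0.10, adjusted p = 0.0133), and the transcription factor gene Srebf1 (0.51 ± 0.13, adjusted p = 0.0167) completed the 5. None of the sterol genes Hmgcs1, Sqle, Idi1, Insig1, Lss and Fdps was called, though Lss was with the 6 libraries alone and Idi1 and Lss were with libraries 1 to 8 alone. Leaving out single libraries ended the call for Acaca without Control 1 or Control 2, for Acly without Control 2 or NNK 1, for Srebf1 without Control 2, NNK 1 or NNK 3, with a highest adjusted p of 0.0879 (Srebf1). Scd1 and Fasn kept the call in all 6 such fits. The count was 4, 2, 5, 3, 5 and 4 in the 6 leave-outs.

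Other metabolic genes moved less. Of 22 glycolysis and hypoxia genes Hk2, the inducible hexokinase, was higher at 26.9, 21.2 and 22.01 CPM in Control and 83.2, 53.9 and 49.4 CPM in NNK (1.41 ± 0.33, adjusted p = 0.015). Gapdh was also called (0.59 ± 0.19, adjusted p = 0.0471), but was counted at only 5.23 to 6.70 CPM in Control and 7.38 to 10.6 CPM in NNK, a gene with many processed copies whose reads the authors' counting may have split. Of 15 respiratory chain genes Ndufa9 (-0.37 ± 0.08, adjusted p = 0.00914), Sdhb (-0.28 ± 0.06, adjusted p = 0.0105), Ndufs1 (-0.26 ± 0.06, adjusted p = 0.0107) and Uqcrc2 (-0.31 ± 0.07, adjusted p = 0.0109) were lower, all by less than 1.5-fold. The count was 4, 3, 4, 0, 4 and 3 in the 6 leave-outs. None of 14 unfolded protein and ATF4 stress genes was called by edgeR, 1 by DESeq2, and 1 had an unadjusted p under 0.05. With 1 library left out, the call was lost for Hk2 without Control 2 or NNK 1, for Gapdh without Control 1, Control 2, Control 3, NNK 1 or NNK 3, for Ndufa9, Sdhb and Ndufs1 without NNK 1, for Uqcrc2 without Control 2, NNK 1 or NNK 3, with a highest adjusted p of 0.182 (Gapdh). Calls were also lost for Gapdh with no filter on low counts, the 6 libraries alone in the fit or the replicate number as a block.

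Of 12 club cell markers 9 were called lower and none higher, with a median of -0.74, and their sum went from 37166 to 40587 CPM in Control to 18276 to 26328 CPM in NNK. Scgb1a1 stood at 29236, 26997 and 26475 CPM in Control and 12728, 17871 and 18827 CPM in NNK (-0.74 ± 0.19, adjusted p = 0.021). The paraoxonase gene Pon1 was at 95.6, 87.7 and 96.4 CPM in Control and 27.3, 45.9 and 45.03 CPM in NNK (-1.24 ± 0.21, adjusted p = 0.0038) and the carbonyl reductase gene Cbr2 at 4462, 4286 and 4259 CPM in Control and 2388, 3379 and 2915 CPM in NNK (-0.58 ± 0.13, adjusted p = 0.0129). NNK 1 was lowest in all 3, and no tumour library overlapped with Control. Aldh1a1 (-0.56 ± 0.12, adjusted p = 0.0107) and Chad (-1.51 ± 0.36, adjusted p = 0.0147) were also lower. Calls depended on 1 library for Scgb1a1 without Control 1, Control 2 or NNK 1, for Cbr2 and Aldh1a1 without NNK 1, for Chad without Control 1 or NNK 1, with a highest adjusted p of 0.12 (Scgb1a1). Pon1 kept the call in all 6 such fits. The count of lower markers was 3, 4, 6, 1, 9 and 7 in the 6 leave-outs, with 1 left without NNK 1.

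All 16 ciliated cell markers had negative changes, but only Tppp3 (507, 427 and 446 CPM in Control and 220.1, 294 and 249 CPM in NNK, -0.86 ± 0.14, adjusted p = 0.00326), Mlf1 (-0.83 ± 0.24, adjusted p = 0.0301) and the dynein light chain gene Dynlrb2 (-0.60 ± 0.18, adjusted p = 0.0334) were called, with a median of -0.49. Of 11 mucous cell markers the trefoil factor Tff2 alone was called, at 2.43, 2.81 and 4.13 CPM in Control and 0.802, 1.03 and 0.0657 CPM in NNK (-2.31 ± 0.68, adjusted p = 0.035). It was also the 1 called gene among 6 gastric and gut epithelial genes tested. Of 12 alveolar type 1 cell markers the homeobox-like gene Hopx was lower at 832, 835 and 702 CPM in Control and 473, 565 and 448 CPM in NNK (-0.67 ± 0.15, adjusted p = 0.0112), and the most abundant, Ager, stood at 3083, 3050.1 and 3033 CPM in Control and 2477, 2765 and 2566 CPM in NNK without being called (-0.23, adjusted p = 0.196). In 10 of the 12 the change was negative, with sums of 10507 to 11248 CPM in Control and 8521 to 10137 CPM in NNK. Leave-outs ended the call for Mlf1, Dynlrb2 and Tff2 without Control 1, Control 2, Control 3, NNK 1 or NNK 3, for Hopx without Control 2, NNK 1 or NNK 3, with a highest adjusted p of 0.168 (Dynlrb2). Tppp3 kept the call in all 6 such fits. Other fits ended the call for Tff2 with no filter on low counts.

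Of 16 lung epithelial transcription factors Cebpa (175, 148 and 137 CPM in Control and 302, 206 and 244 CPM in NNK, 0.71 ± 0.19, adjusted p = 0.0257) and Tfcp2l1 (0.82 ± 0.22, adjusted p = 0.0234) were among those called higher, and none was lower. Of 13 keratin and injury-state genes none was called by edgeR or DESeq2 and 0 had an unadjusted p under 0.05, with Krt8 at 299, 274 and 249 CPM in Control and 311, 271 and 279 CPM in NNK. With the 6 libraries alone in the fit 2 were called. Among 16 junction and mesenchymal transition genes the claudin genes Cldn2 (1.37, 1.60 and 2.13 CPM in Control and 7.42, 5.95 and 6.97 CPM in NNK, 1.99 ± 0.47, adjusted p = 0.0148) and Cldn3 (0.46 ± 0.11, adjusted p = 0.0149) rose and Cldn18 (-0.36 ± 0.10, adjusted p = 0.0299) and the occludin gene Ocln (-0.39 ± 0.09, adjusted p = 0.0101) fell. No mesenchymal transition factor was called, but Zeb1 was with the 6 libraries alone, and Zeb1 and Zeb2 with libraries 1 to 8 alone. Of 8 oncofetal genes edgeR called H19, and DESeq2 Dlk1 as well. Of 10 IGF system genes Igfbp6 was lower (-0.72 ± 0.16, adjusted p = 0.012). The call was lost for Cebpa without Control 2, Control 3, NNK 1 or NNK 3, for Tfcp2l1 without Control 1, Control 2, Control 3 or NNK 1, for Cldn2 without Control 1, Control 2 or NNK 1, for Cldn3 without Control 2, NNK 1 or NNK 3, for Cldn18 without Control 1, Control 2, NNK 1 or NNK 3, for Ocln without NNK 1, for Igfbp6 without Control 1 or NNK 1, with a highest adjusted p of 0.13 (Cldn18). Further settings ended the call for Cldn18 with no filter on low counts. None of the 5 neuroendocrine markers tested was called by edgeR or DESeq2, and 0 had an unadjusted p under 0.05.

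**Figure D4:**
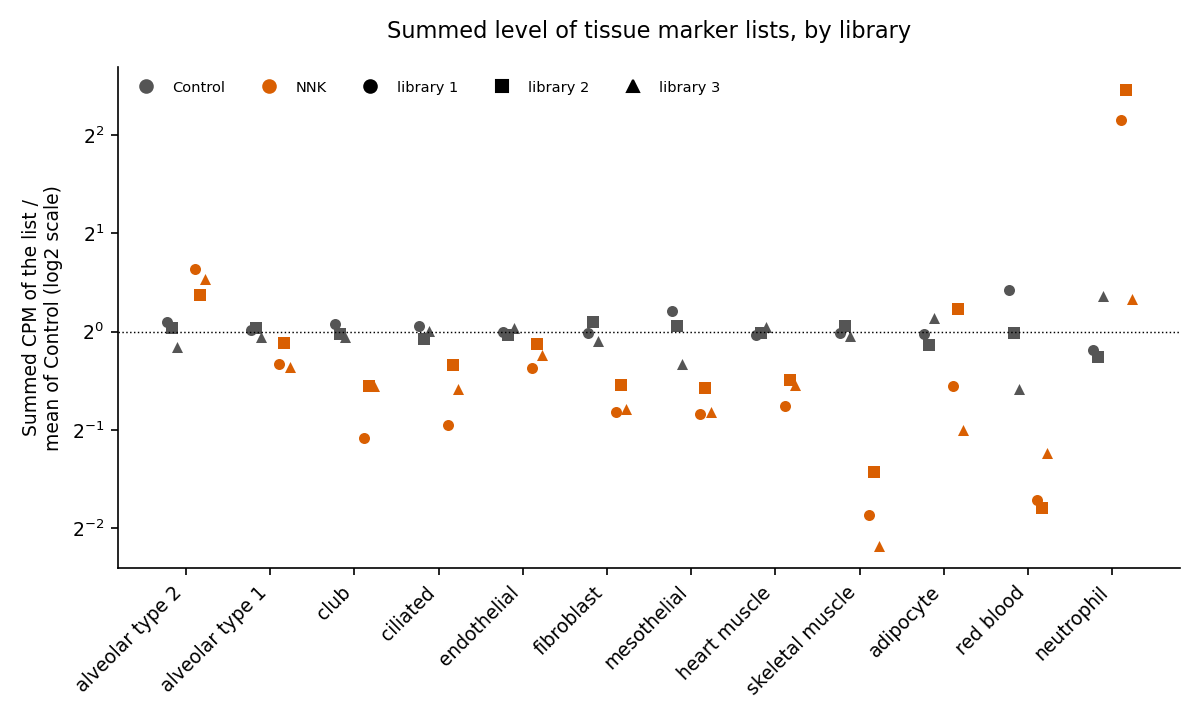
Summed CPM of marker lists in each library, divided by the mean of the 3 Control libraries, on a log2 axis, with Control in grey, NNK in orange and the library number as the marker shape. The type 2 list lies above Control in all tumour libraries. The type 1, club, ciliated, endothelial, fibroblast, mesothelial, heart, skeletal muscle and red cell lists lie below, and the neutrophil list is high in NNK 1 and NNK 2 alone.

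A few xenobiotic enzyme genes fell. Of 11 genes of NNK metabolism and adduct repair 2 were called, both lower. Cyp2f2, typical of club cells, was at 4224, 3929 and 3933 CPM in Control and 1943, 2988 and 2879.5 CPM in NNK (-0.63 ± 0.16, adjusted p = 0.0177) and Cyp2e1 at 8.27, 5.43 and 14.3 CPM in Control and 1.94, 4.17 and 1.51 CPM in NNK (-1.88 ± 0.40, adjusted p = 0.00928). Cyp2a5, Cyp2a4 and Cyp2b10 were not called, nor was the alkyltransferase gene Mgmt. Of 17 other xenobiotic enzymes Ces1d (-0.58 ± 0.13, adjusted p = 0.0104) was among those called lower and Ugt1a7c (0.57 ± 0.17, adjusted p = 0.0353) higher, and Fmo6 was among the genes with the lowest log2 change at 2.12, 1.85 and 1.48 CPM in Control and 0.201, 0.820 and 0.197 CPM in NNK (-2.15 ± 0.55, adjusted p = 0.0198). Leaving out single libraries ended the call for Cyp2f2 without Control 1, Control 2 or NNK 1, for Cyp2e1 and Ces1d without NNK 1, for Ugt1a7c without Control 1, Control 2, NNK 1, NNK 2 or NNK 3, for Fmo6 without Control 1, Control 2, NNK 1 or NNK 3, with a highest adjusted p of 0.155 (Ugt1a7c). Among other settings, the call was lost for Ugt1a7c with the 6 libraries alone in the fit. The club cell marker sum, which includes Cyp2f2 itself, moved the same way in the same libraries. The part of that sum in these changes was not tested.

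Of 7 aryl hydrocarbon receptor genes 3 were called lower. Cyp1a1, its best known target, stood at 20.1, 21.5 and 0.904 CPM in Control and 1.40, 0.615 and 0.789 CPM in NNK (-3.90 ± 0.94, adjusted p = 0.0163). Control 3 was as low as the tumours, so that the groups overlap and the mean of Control rests on its first and second library. Aldh3a1 was at 26.02, 26.6 and 25.2 CPM in Control and 12.4, 19.00 and 16.96 CPM in NNK (-0.69 ± 0.19, adjusted p = 0.0273) and Nqo1 at 7.43, 8.04 and 10.8 CPM in Control and 3.48, 6.08 and 5.92 CPM in NNK (-0.76 ± 0.24, adjusted p = 0.0449). The list count was 0, 0, 2, 0, 2 and 0 in the 6 leave-outs and 1 with the 6 libraries alone in the fit. Nqo1 is also an NRF2 target, and of 21 NRF2 targets edgeR called Nqo1 (lower) and Me1 (higher, 0.58 ± 0.16, adjusted p = 0.0298). Higher targets numbered 3 with DESeq2 and 4 with the 6 libraries alone, where Nqo1 was not called. With 1 library left out, the call was lost for Cyp1a1 and Aldh3a1 without Control 1, Control 2, NNK 1 or NNK 3, for Nqo1 whichever library was left out, for Me1 without Control 1, Control 2, NNK 1, NNK 2 or NNK 3, with a highest adjusted p of 0.207 (Nqo1). Calls were also lost for Cyp1a1 and Nqo1 with the 6 libraries alone in the fit or libraries 1 to 8 alone in the fit, for Nqo1 with no filter on low counts.

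Some antigen presentation genes rose. All 12 MHC class II genes had a positive change, 6 were called, and the median was 0.77. The invariant chain gene Cd74 stood at 811, 821 and 1146 CPM in Control and 1891, 1902 and 2457 CPM in NNK (1.17 ± 0.19, adjusted p = 0.00308). H2-Ab1 was at 215, 218 and 315 CPM in Control and 405, 450.5 and 585 CPM in NNK (0.95 ± 0.20, adjusted p = 0.00963) and the peptide loading gene H2-DMa at 27.3, 23.9 and 38.99 CPM in Control and 56.6, 55.5 and 69.4 CPM in NNK (1.01 ± 0.20, adjusted p = 0.00714). Control 3 was the highest of its group and NNK 3 of its own in all 3 genes. H2-Eb1 (1.01 ± 0.32, adjusted p = 0.0466), H2-DMb1 (0.67 ± 0.17, adjusted p = 0.017) and H2-DMb2 (0.87 ± 0.27, adjusted p = 0.0418) were also higher, while Ciita, the master regulator of the class, was at 9.33, 12.7 and 31.6 CPM in Control and 24.4, 30.4 and 55.7 CPM in NNK and overlapped between groups. It was not called by edgeR in the fit to all libraries but was by DESeq2. Of 12 class I and processing genes H2-D1 (724, 666 and 914 CPM in Control and 1218, 1406 and 1625 CPM in NNK, 0.88 ± 0.16, adjusted p = 0.00475) and H2-K1 (546, 572 and 764 CPM in Control and 926, 1090.0 and 1389 CPM in NNK, 0.85 ± 0.18, adjusted p = 0.00931) were called higher. Calls depended on 1 library for H2-Ab1 and H2-K1 without Control 2, for H2-Eb1 and H2-DMb2 without Control 1, Control 2, NNK 1 or NNK 3, for H2-DMb1 without Control 1, Control 2 or NNK 1, for H2-M2 without Control 1, Control 2 or NNK 3, with a highest adjusted p of 0.206 (H2-Eb1). Cd74, H2-DMa and H2-D1 kept the call in all 6 such fits. Other fits ended the call for H2-Eb1 and H2-DMb2 with no filter on low counts, the 6 libraries alone in the fit or libraries 1 to 8 alone in the fit, for H2-Eb1 with the replicate number as a block. The class II count was 3, 2, 9, 3, 6 and 4 in the 6 leave-outs. The class I count was 2, 1, 6, 2, 2 and 2, and 4 with DESeq2. H2-M2, a non-classical class I gene, was among the genes with the highest log2 change, at 1.14, 1.21 and 1.87 CPM in Control and 8.29, 5.54 and 30.2 CPM in NNK (3.37 ± 0.86, adjusted p = 0.021), with NNK 3 above the others. H2 genes are closely related, and their counts are uncertain to the extent that reads were shared.

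Neutrophil markers were high in 2 of the 3 tumour libraries. Of 16 tested 9 were called higher and the median was 2.19, but NNK 3 lay near Control in nearly all. The calprotectin genes S100a8 and S100a9 stood at 6.60, 6.38 and 17.04 CPM in Control and 95.5, 110.4 and 9.14 CPM in NNK, and 12.8, 11.7 and 37.8 CPM in Control and 199, 254 and 22.3 CPM in NNK (2.83 ± 0.90, adjusted p = 0.0495 and 2.93 ± 0.93, adjusted p = 0.049). The decoy receptor gene Il1r2 was at 0.379, 0.766 and 0.839 CPM in Control and 12.2, 10.2 and 1.91 CPM in NNK (3.58 ± 0.93, adjusted p = 0.0219), and the resistin-like gene Retnlg at 4.48, 3.00 and 6.84 CPM in Control and 52.7, 57.3 and 7.62 CPM in NNK (3.04 ± 0.82, adjusted p = 0.0266). In S100a8 and S100a9 NNK 3 lay below Control 3. The chemokine receptor gene Cxcr2 (2.43, 2.17 and 6.39 CPM in Control and 28.9, 33.97 and 6.11 CPM in NNK, 2.64 ± 0.76, adjusted p = 0.0334) showed the same, whereas the cytokine receptor gene Csf3r (10.7, 9.00 and 28.02 CPM in Control and 67.1, 86.05 and 30.7 CPM in NNK, 1.94 ± 0.48, adjusted p = 0.0187) and Padi4 (1.74 ± 0.47, adjusted p = 0.0242) did not overlap. Among granule genes of earlier neutrophil stages, Ltf was at 32.8, 35.3 and 33.9 CPM in Control and 35.1, 81.1 and 42.2 CPM in NNK, and Camp was under 1 CPM in all 6. The count was 0, 0, 5, 0, 1 and 10 in the 6 leave-outs, 4 without the filter on low counts, 4 with the 6 libraries alone in the fit and 5 with libraries 1 to 8 alone. Leave-outs ended the call for Il1r2 without Control 1, Control 2 or NNK 1, for Retnlg, Csf3r, S100a9 and Cxcr2 without Control 1, Control 2, NNK 1 or NNK 2, for S100a8 and Padi4 without Control 1, Control 2, Control 3, NNK 1 or NNK 2, with a highest adjusted p of 0.166 (S100a9). Further settings ended the call for Retnlg, Csf3r, S100a8, S100a9 and Cxcr2 with the 6 libraries alone in the fit, for Csf3r, S100a8, S100a9 and Cxcr2 with libraries 1 to 8 alone in the fit, for S100a8, S100a9 and Cxcr2 with no filter on low counts or the replicate number as a block.

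Glucocorticoid-induced genes set the same library apart. None of the 11 tested was called by edgeR or DESeq2, and 1 had an unadjusted p under 0.05. Zbtb16, a transcription factor gene induced by glucocorticoids, stood at 71.2, 44.5 and 16.98 CPM in Control and 269, 305 and 8.35 CPM in NNK, and Fkbp5, an inhibitor of the glucocorticoid receptor, at 24.6, 14.5 and 10.3 CPM in Control and 114, 89.9 and 14.2 CPM in NNK. NNK 3 was 32.2 and 6.33 times below the nearer of the others. In the Control group, Control 3 was likewise the lowest for Zbtb16, Fkbp5, Tsc22d3 (424, 336 and 90.7 CPM in Control and 498, 365 and 96.9 CPM in NNK) and Per1 (103, 109.7 and 31.8 CPM in Control and 169.6, 107 and 39.2 CPM in NNK). The hypoxia-inducible factor gene Hif3a, at 4.78, 2.43 and 2.26 CPM in Control and 14.2, 12.3 and 1.38 CPM in NNK, was also lowest in NNK 3. Summed over the list, Control 1 and 2 were at 1332 and 1282 CPM and Control 3 at 567 CPM, with NNK 1 and 2 at 1785 and 1723 CPM and NNK 3 at 599 CPM. The part of these library differences in the neutrophil values was not tested.

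**Figure D5:**
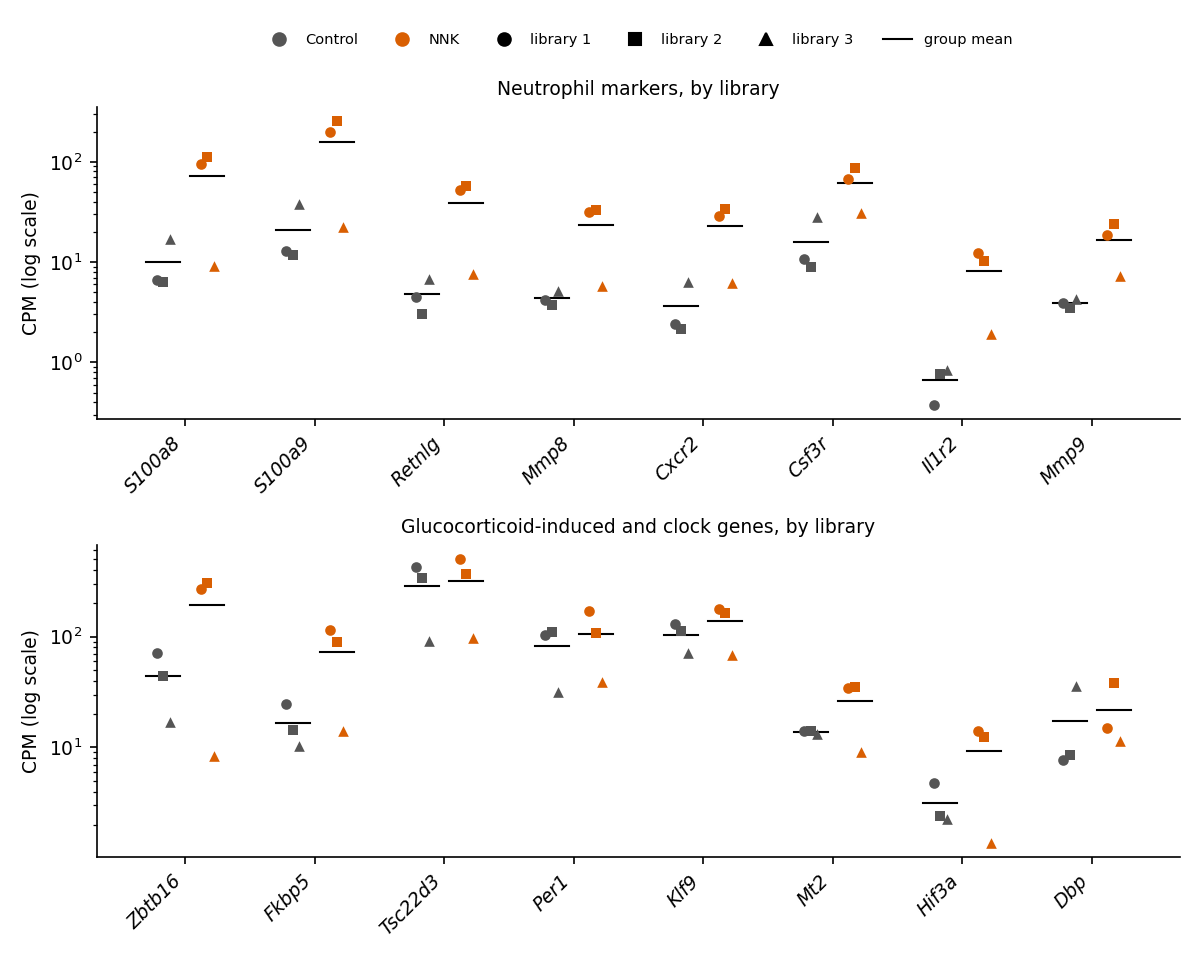
CPM on a log axis of neutrophil markers (upper panel) and of glucocorticoid-induced and clock genes (lower panel) in the 3 Control libraries (grey) and 3 NNK libraries (orange), with the library number as the marker shape and the group mean as a line. NNK 3, the orange triangle, is lowest of the tumours in every gene shown, and Control 3 is lowest of its group in Zbtb16, Fkbp5, Tsc22d3, Per1 and Klf9.

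Control 3 and NNK 3 also shared high B cell values. The B cell receptor gene Cd79a stood at 8.95, 5.11 and 40.1 CPM in Control and 12.8, 15.6 and 39.5 CPM in NNK and the Fc receptor gene Fcer2a at 5.39, 3.26 and 24.6 CPM in Control and 8.29, 8.41 and 28.5 CPM in NNK. The third library was the highest of each group by 2-fold or more, and neither of these genes was called. Interferon-induced GTPase genes had another pattern, with Gbp4 at 80.7, 141 and 349 CPM in Control and 62.2, 268 and 276 CPM in NNK and Tgtp2 at 7.21, 11.3 and 38.02 CPM in Control and 5.95, 24.3 and 41.1 CPM in NNK. None of 18 interferon response genes was called by edgeR or DESeq2, and 0 had an unadjusted p under 0.05. Over genes of at least 5 CPM in their group, NNK 3 lay at least 4-fold above both other libraries in 5 genes and below both in 11, against at most 4 in either direction in any other library. The ubiquitin-like gene Ubd, at 0.152, 0.0638 and 0.452 CPM in Control and 1.00, 0.478 and 19.98 CPM in NNK, Ly6i, at 0.607, 0.830 and 0.646 CPM in Control and 1.07, 0.820 and 14.00 CPM in NNK, and the retinoic acid hydroxylase gene Cyp26b1, at 32.8, 20.7 and 32.7 CPM in Control and 8.69, 12.03 and 82.6 CPM in NNK, were the most extreme of the 5. In Slc28a1, a nucleoside transporter gene, single libraries of both groups stood apart, at 18.5, 1.34 and 0.194 CPM in Control and 23.5, 0 and 47.1 CPM in NNK.

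Among other immune lists calls were few. Of 15 alveolar macrophage markers Itgax, the CD11c integrin gene, was higher at 84.3, 83.1 and 109.9 CPM in Control and 223, 166 and 207 CPM in NNK (1.10 ± 0.21, adjusted p = 0.00647). Of 7 tumour macrophage products the elastase gene Mmp12 was called, at 8.65, 7.98 and 12.2 CPM in Control and 42.8, 21.3 and 61.1 CPM in NNK (2.12 ± 0.61, adjusted p = 0.0332). No tumour library overlapped with Control in either gene. Gpnmb (85.8, 61.03 and 66.7 CPM in Control and 159, 109 and 167 CPM in NNK), Trem2 (6.07, 5.23 and 8.59 CPM in Control and 13.4, 11.7 and 15.8 CPM in NNK) and Spp1 (106, 99.2 and 102 CPM in Control and 241, 180.4 and 216 CPM in NNK) did not overlap either but missed the threshold, with adjusted p of 0.0928, 0.056 and 0.111. Without overlap, 17.3% of all genes tested, called or not, lay higher in NNK. DESeq2 called Gpnmb and Trem2, and edgeR with the 6 libraries alone called these and Spp1. Summed alveolar macrophage markers were 1021 to 1285 CPM in Control and 1497 to 1809 CPM in NNK. The call was lost for Mmp12 without Control 1, Control 2, Control 3, NNK 1 or NNK 3, with a highest adjusted p of 0.12. Itgax kept the call in all 6 such fits. Among other settings, the call was lost for Mmp12 with no filter on low counts.

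Of 17 T cell markers the checkpoint receptor gene Ctla4 was higher at 0.834, 0.575 and 0.775 CPM in Control and 2.27, 1.504 and 4.21 CPM in NNK (1.87 ± 0.56, adjusted p = 0.0388). The antibody joining chain gene Igj was the 1 called gene of 11 B and plasma cell markers, at 35.95, 27.00 and 54.03 CPM in Control and 169, 167 and 319.6 CPM in NNK (2.49 ± 0.57, adjusted p = 0.0131). NNK 3 was highest in both. None of 9 NK cell, 12 dendritic cell and 8 mast cell, basophil and eosinophil markers was called by edgeR, against 0, 1 and 1 by DESeq2, and 0, 2 and 4 had an unadjusted p under 0.05. With the 6 libraries alone in the fit 3 dendritic cell markers were called. Of 27 cytokines and chemokines Il1b (6.60, 5.87 and 9.55 CPM in Control and 18.1, 29.2 and 15.4 CPM in NNK, 1.504 ± 0.41, adjusted p = 0.0273) and Tgfb1 (0.51 ± 0.12, adjusted p = 0.0138) were higher. Of 10 prostaglandin and leukotriene genes the cyclooxygenase gene Ptgs1 rose, at 116, 107 and 120.5 CPM in Control and 177, 158 and 168 CPM in NNK (0.55 ± 0.11, adjusted p = 0.00727), and Ptgs2 was not called. Leaving out single libraries ended the call for Ctla4 without Control 1, Control 2, Control 3, NNK 1 or NNK 3, for Igj without Control 2, for Il1b without Control 1, Control 2, NNK 1 or NNK 2, for Tgfb1 without Control 2, NNK 1 or NNK 3, with a highest adjusted p of 0.152 (Ctla4). Ptgs1 kept the call in all 6 such fits. Calls were also lost for Ctla4 with no filter on low counts. The T cell count was 5 with DESeq2 and with libraries 1 to 8 alone.

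About as many fibroblast markers fell as missed the threshold. All 17 had a negative change, 9 were called lower, and the median was -0.71, with sums of 5348 to 6143 CPM in Control and 3256 to 3931 CPM in NNK. The matrix protein gene Dpt stood at 164, 181 and 149.7 CPM in Control and 76.03, 110.2 and 78.3 CPM in NNK (-0.90 ± 0.17, adjusted p = 0.00628), the methyltransferase gene Inmt at 1885, 1611 and 1547 CPM in Control and 759.9, 999.7 and 877 CPM in NNK (-0.94 ± 0.20, adjusted p = 0.00889) and the collagen gene Col3a1 at 622, 743 and 531 CPM in Control and 336, 369.8 and 347 CPM in NNK (-0.85 ± 0.21, adjusted p = 0.0187). NNK 2 was the highest tumour library in each and did not reach Control. Pdgfra (-0.51 ± 0.13, adjusted p = 0.017) and the proteoglycan gene Lum (-1.44 ± 0.44, adjusted p = 0.0425) fell as well, but Col1a1 was at 125, 125 and 86.4 CPM in Control and 105, 114 and 109 CPM in NNK and was not called (-0.04). With 1 library left out, the call was lost for Inmt without NNK 1, for Col3a1 without Control 2, NNK 1 or NNK 3, for Pdgfra without Control 1, Control 2, NNK 1 or NNK 3, for Lum whichever library was left out, with a highest adjusted p of 0.134 (Lum). Dpt kept the call in all 6 such fits. Other fits ended the call for Lum with no filter on low counts. The count was 4, 2, 4, 1, 7 and 2 in the 6 leave-outs. Mesothelial markers, which line the lung surface, were at 470.0 to 682 CPM in sum in Control and 329 to 396 CPM in NNK, with 0 of 6 called by edgeR in the fit to all libraries, 2 by DESeq2 and 4 with the 6 libraries alone in the fit, and 4 had an unadjusted p under 0.05. Heart muscle and mesothelial markers were lower in the same libraries as fibroblast markers, and their part was not tested.

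Few matrix and endothelial genes were called. Their shares were close to those over all genes tested, 6.46% called higher and 6.63% called lower. Of 17 matrix genes fibronectin, Fn1, was higher at 394, 381 and 522 CPM in Control and 723, 663 and 661 CPM in NNK (0.66 ± 0.18, adjusted p = 0.023) and periostin, Postn, lower at 327, 407 and 323 CPM in Control and 234, 266 and 234 CPM in NNK (-0.53 ± 0.14, adjusted p = 0.025). Of 12 matrix proteases and inhibitors Mmp12 and Mmp9 (2.10 ± 0.59, adjusted p = 0.0305) were higher. Both calls are counted in other lists too, Mmp9 among neutrophil markers and Mmp12 among tumour macrophage products. Spon2, a matrix protein gene among the lowest, was at 40.9, 44.2 and 26.6 CPM in Control and 6.29, 8.41 and 12.6 CPM in NNK (-2.03 ± 0.40, adjusted p = 0.00691). Of 14 endothelial markers Emcn, a sialomucin of capillary and venous endothelium, was called at 76.00, 76.5 and 68.8 CPM in Control and 39.7, 43.4 and 39.9 CPM in NNK (-0.85 ± 0.17, adjusted p = 0.00768), while Pecam1 was at 939, 991 and 939 CPM in Control and 671, 812 and 644 CPM in NNK without a call, though with one in the fit to the 6 libraries alone. In 9 of the 14 endothelial markers the change was negative, with sums of 6001 to 6311 CPM in Control and 4758 to 5621 CPM in NNK. Bmx, an arterial endothelial kinase gene, was lower among 8 artery and vein markers (-0.71 ± 0.14, adjusted p = 0.00691). None of the 5 aerocyte, 5 general capillary and 4 lymphatic markers was called by edgeR or DESeq2, and 1, 0 and 2 had an unadjusted p under 0.05. Of 8 pericyte markers Pdgfrb (0.51 ± 0.15, adjusted p = 0.0321) was higher and Higd1b (-0.75 ± 0.17, adjusted p = 0.0122) and Gucy1b3 (-0.54 ± 0.17, adjusted p = 0.0457) lower. None of 11 smooth muscle and 2 Schwann cell markers was called by edgeR, against 1 and 0 by DESeq2, and 2 and 0 had an unadjusted p under 0.05. Calls depended on 1 library for Fn1 without Control 1, Control 2 or NNK 1, for Postn without Control 2, NNK 1 or NNK 3, for Mmp9 without Control 1, Control 2, Control 3, NNK 1 or NNK 2, for Pdgfrb without Control 1, Control 2, NNK 1 or NNK 3, for Higd1b without NNK 1, for Gucy1b3 whichever library was left out, with a highest adjusted p of 0.181 (Gucy1b3). Spon2, Emcn and Bmx kept the call in all 6 such fits. Further settings ended the call for Mmp9 and Gucy1b3 with no filter on low counts, for Gucy1b3 with relative log expression size factors.

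Among the largest decreases were those of heart muscle genes, whose RNA dissected lung can carry in the muscle sleeve of the pulmonary veins or as adhering tissue. Of 11 heart markers 8 were called lower, with a median of -1.95. Atrial myosin light chain genes Myl4 and Myl7 were at 66.7, 74.6 and 57.9 CPM in Control and 12.5, 20.2 and 8.08 CPM in NNK, and 60.3, 71.2 and 64.9 CPM in Control and 13.6, 23.4 and 6.97 CPM in NNK (-2.29 ± 0.59, adjusted p = 0.0207 and -2.16 ± 0.63, adjusted p = 0.0363). The cardiac troponin gene Tnnt2 was at 45.9, 55.4 and 47.00 CPM in Control and 10.7, 20.98 and 5.98 CPM in NNK (-1.98 ± 0.63, adjusted p = 0.0495), and Myh6, the alpha myosin heavy chain, at 287, 269 and 303 CPM in Control and 94.9, 143 and 71.9 CPM in NNK (-1.47 ± 0.38, adjusted p = 0.0209). NNK 2 held the most heart RNA of the tumours and NNK 3 the least in each of these. Myh7, the adjacent and closely related beta chain gene, went the other way at 184, 172 and 200.2 CPM in Control and 294, 280.4 and 409 CPM in NNK (0.82 ± 0.23, adjusted p = 0.0302). Reads may have been shared between these paralogs, which was not tested and would make both uncertain. The list count was 3, 1, 4, 1, 9 and 0 in the 6 leave-outs.

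Further muscle genes were among the 15 lowest genes. They were Xirp2 (3.03, 2.62 and 1.74 CPM in Control and 0.134, 0.342 and 0.131 CPM in NNK, -3.56 ± 0.86), Pln, which inhibits the calcium pump (3.03, 2.49 and 4.07 CPM in Control and 0.0669, 0.820 and 0.197 CPM in NNK, -3.13 ± 0.75), the troponin C gene Tnnc1 (-2.37 ± 0.61), Hrc, a calcium store protein (-2.37 ± 0.71), Art1 (-2.37 ± 0.72), Mybphl (-2.29 ± 0.70), the atrial peptide gene Nppa (-2.21 ± 0.62) and the potassium channel gene Kcnj3 (-2.25 ± 0.50). Creatine kinase, Ckm, was at 19.9, 23.4 and 21.6 CPM in Control and 4.95, 5.88 and 1.84 CPM in NNK (-2.36 ± 0.66, adjusted p = 0.0292) and with Acta1 (-2.64 ± 0.80, adjusted p = 0.0397) was 1 of the 2 called among 6 skeletal muscle markers. Levels were low in most of these genes. No overlap between the groups was a condition for the 15 lowest genes. Leave-outs ended the call for Xirp2 and Tnnc1 without Control 2, NNK 1 or NNK 3, for Pln without NNK 1 or NNK 3, for Hrc and Art1 whichever library was left out, for Mybphl, Acta1, Myl7 and Tnnt2 without Control 1, Control 2, Control 3, NNK 1 or NNK 3, for Nppa without Control 2, Control 3, NNK 1 or NNK 3, for Kcnj3 without Control 2 or NNK 1, for Ckm, Myl4, Myh6 and Myh7 without Control 1, Control 2, NNK 1 or NNK 3, with a highest adjusted p of 0.157 (Tnnt2). Among other settings, the call was lost for Hrc, Mybphl, Ckm, Myl7 and Tnnt2 with no filter on low counts, for Nppa with the 6 libraries alone in the fit, for Tnnt2 with relative log expression size factors.

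Red cell and fat markers were also lower or uneven. The beta-globin gene Hbb-bs stood at 5468, 4364 and 2780.1 CPM in Control and 1163, 1139.9 and 1649 CPM in NNK (-1.67 ± 0.52, adjusted p = 0.0453), Hbb-bt changed by -1.92 ± 0.57, adjusted p = 0.0385, and the haem synthesis gene Alas2 was at 125, 86.4 and 72.2 CPM in Control and 24.2, 23.3 and 38.6 CPM in NNK (-1.72 ± 0.54, adjusted p = 0.0481). The alpha-globin genes were not called, but were with the 6 libraries alone, where all 5 red cell markers tested were called. Reads of near-identical globin copies may be shared. Control 1 held the most and NNK 1 and 2 the least. The call was lost for Hbb-bs and Hbb-bt without Control 1, Control 2, NNK 1, NNK 2 or NNK 3, for Alas2 whichever library was left out, with a highest adjusted p of 0.163 (Alas2). Calls were also lost for Hbb-bs, Hbb-bt and Alas2 with no filter on low counts, for Alas2 with relative log expression size factors. None of 8 adipocyte markers was called by edgeR or DESeq2, 2 were with the 6 libraries alone in the fit, and 1 had an unadjusted p under 0.05, with Cfd at 31.4, 29.6 and 23.6 CPM in Control and 3.28, 10.5 and 3.02 CPM in NNK and Adipoq at 7.28, 7.85 and 10.6 CPM in Control and 1.20, 4.51 and 1.71 CPM in NNK. The brown fat gene Ucp1 was at 7.28, 7.72 and 7.36 CPM in Control and 0.401, 8.75 and 0.0657 CPM in NNK, so that NNK 2 held as much as Control while NNK 1 and NNK 3 held almost none. Markers of oesophagus, cartilage and thyroid summed to 3.77 to 7.62 CPM in Control and 4.41 to 6.15 CPM in NNK, and none of the 2 tested was called by edgeR or DESeq2 or had an unadjusted p under 0.05.

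Of 15 immediate early and heat shock genes Fos (19.9, 17.4 and 12.4 CPM in Control and 34.7, 35.95 and 41.5 CPM in NNK, 1.18 ± 0.29, adjusted p = 0.0167), Egr1 and Nr4a1 (0.80 ± 0.25, adjusted p = 0.0474) were higher. Of 15 clock genes the repressor gene Bhlhe40 was higher, at 40.2, 40.7 and 59.5 CPM in Control and 90.00, 84.95 and 97.5 CPM in NNK (0.95 ± 0.30, adjusted p = 0.0461), and the clock output gene Dbp stood at 7.74, 8.49 and 36.2 CPM in Control and 15.1, 38.1 and 11.5 CPM in NNK, with Control 3 and NNK 2 apart from the rest. The labels give no hour of sampling. Leaving out single libraries ended the call for Fos without Control 2 or Control 3, for Nr4a1 without Control 1, Control 2, Control 3, NNK 2 or NNK 3, for Bhlhe40 without Control 1, Control 2, NNK 1, NNK 2 or NNK 3, with a highest adjusted p of 0.21 (Nr4a1). Other fits ended the call for Nr4a1 and Bhlhe40 with no filter on low counts, for Nr4a1 with the 6 libraries alone in the fit or libraries 1 to 8 alone in the fit.

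Among called genes with a mean of at least 1 CPM and no overlap, the highest log2 change was that of Npy2r, a neuropeptide Y receptor gene (chromosome 3, 82538383 to 82548084), which was almost absent from normal lung. It stood at 0, 0 and 0.0646 CPM in Control and 6.62, 4.92 and 2.37 CPM in NNK, that is 1 count over the 3 Control libraries and 207 over the 3 NNK libraries, a ratio of 205 with a 95% counting interval of 36.4 to 8130 (adjusted p = 0.0013). It was at 0 to 0.0717 CPM in LPS lung and at 1.48 to 2.69 CPM in NNK_LPS tumours. Awat1, a wax ester synthase gene (chromosome X, 100572251 to 100578205), was at 0.152, 0 and 0.0646 CPM in Control and 2.54, 1.09 and 4.27 CPM in NNK, or 3 against 119 counts, a ratio of 39.3 with an interval of 13.1 to 193 (adjusted p = 0.00475). In both genes all tumour libraries lay well above Control. These intervals cover counting error only.

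Of the rest of the 15 highest, those given here were also at low levels in Control. Tnfsf9, which codes for the ligand of the T cell co-stimulator 4-1BB (chromosome 17, 57105325 to 57107757), stood at 1.74, 1.72 and 1.16 CPM in Control and 14.98, 7.86 and 21.2 CPM in NNK (3.25 ± 0.47, adjusted p = 0.00181). Bcl2l15, of the BCL2 family (chromosome 3, 103832601 to 103854618), was at 0.607, 0.447 and 0.258 CPM in Control and 4.61, 2.12 and 3.48 CPM in NNK (2.96 ± 0.36, adjusted p = 0.000481). The tumour libraries were several-fold above Control in both. Tmem213 was at 1.21, 0.958 and 0.968 CPM in Control and 10.9, 5.67 and 6.05 CPM in NNK (2.85 ± 0.54, adjusted p = 0.00628), and Prnd, a prion-like gene, at 0.379, 0.255 and 0.194 CPM in Control and 2.47, 1.30 and 4.47 CPM in NNK (3.31 ± 0.91, adjusted p = 0.027). With 1 library left out, the call was lost for Prnd without Control 1, Control 2, Control 3, NNK 1 or NNK 3, with a highest adjusted p of 0.0995. Npy2r, Awat1, Tnfsf9, Bcl2l15 and Tmem213 kept the call in all 6 such fits.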

How the data were processed

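RNA was extracted with the RNeasy Mini Kit and libraries were made with the TruSeq RNA kit, version 2, per the labels' protocols. The authors deposited whole-number counts per gene symbol for 21 libraries and 38924 symbols, and mm10 is the build in the submitters' processing notes. Which aligner, counting tool and annotation were used, and whether counting used strand, is not given in the sources used here, so genes with close copies or overlapping neighbours are uncertain.

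The counts were analysed with edgeR 4.0.16 in R 4.3.3: scaling by trimmed mean of M-values, filterByExpr with a minimum count of 10 (15770 genes), a robust quasi-likelihood fit to all 7 groups of 3 libraries (14 residual degrees of freedom) and Benjamini-Hochberg adjustment over all genes tested, with calls at an adjusted p under 0.05. All groups thus share an estimate of the spread. CPM used normalised library sizes. The steps were tested on simulated counts. Lists are described by counts and medians, without a test. Gene positions are from GENCODE M21, and sequences from RefSeq (GRCm38.p6).

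Named genes are the 15 highest and 15 lowest called genes by log2 fold change with a mean of at least 1 CPM over the 6 libraries and no overlap, leaving out uncharacterised models and immunoglobulin segments, and up to 4 called genes per list by adjusted p. Further list members, and genes that set single libraries apart, are given with their values. Some genes that this rule names are not reported here. The comparison, the lists and the members were chosen with earlier results of these data known.

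Alternatives were relative log expression size factors, no filter on low counts, DESeq2 1.42.0, the 6 libraries alone, libraries 1 to 8 of the title order alone, a replicate block, and each of the 6 libraries left out with the genes tested kept. Libraries 1 to 8 were fitted alone as libraries of 1 batch, which the labels do not name. The spread shared by all groups may therefore include batch differences. Values of groups other than NNK and Control may also differ from theirs by batch.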

Additional observations from a re-analysis of the deposited data

How the results depend on the processing

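The count of genes called, 2064, was 2007 with relative log expression size factors, 1535 without the filter on low counts, 2648 with DESeq2, 2293 with the 6 libraries alone and 2810 with libraries 1 to 8 alone. Of the 2064 genes, 1867, 1523, 2015, 1551 and 1780 were called again in these fits. The share of calls higher in NNK was 49.4%, and 57.7%, 58.5%, 57.6%, 56.0% and 55.2% in the same order. It was 63.9% without NNK 1 and 63.8% without NNK 3. Leaving out 1 library gave 490 to 1856 calls, and 101 to 318 with at least a 2-fold change against 312 with all libraries. The lowest counts were without NNK 1 and without Control 2. All 6 leave-out fits have the same number of libraries.

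The deviations of same-numbered libraries from their group means correlated at 0.178, 0.033 and 0.290 for numbers 1, 2 and 3. The number 2 pair was not above 0.1, and the numbers were not taken to pair the samples. With the replicate number as a block, edgeR called 2311 genes, 1989 of them among the 2064, and 313 with at least a 2-fold change.

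Of the 179 genes summarised, none changed direction in any of these fits. Most of the 179 were already called in the fit to all libraries, and the fits share libraries. The count therefore does not test how far directions hold, and no such count is given for all genes tested. At 13.3 to 15.6 M counts per library, genes under about 1 CPM rest on few counts, and 3 libraries a group from pooled tumours limit what a missed threshold can show.

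Further list counts moved by at least 2 genes and more than 1.5 times against the fit to all libraries. With DESeq2 the calls were 5 against 3 higher for lung epithelial transcription factors, 5 against 3 lower for cell cycle and mitosis genes and 2 against 0 higher for G1 cyclins and CDK inhibitors. With the 6 libraries alone the calls were 3 against 1 lower for alveolar type 1 cell markers, 3 against 1 lower for IGF system, 3 against 1 higher for Notch pathway genes, 4 against 2 lower for other xenobiotic enzymes, 3 against 1 higher for alveolar macrophage markers and 2 against 0 higher for endothelial cell markers. There were also 4 against 1 lower for endothelial cell markers, 2 against 0 lower for smooth muscle and myofibroblast markers, 3 against 1 higher for pericyte markers, 3 against 1 higher for matrix genes, 3 against 1 lower for matrix genes and 2 against 0 lower for matrix proteases and inhibitors. Without the filter on low counts the calls were 0 against 2 higher for matrix proteases and inhibitors and 5 against 8 lower for heart muscle markers.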

Other observations

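Genes outside the lists held some of the smallest adjusted p among the 351 genes called in every leave-out. They are given here as values and were chosen after their values were seen. Cpne2, a calcium-dependent phospholipid-binding copine gene, had the smallest adjusted p of all, at 9.18, 7.85 and 9.36 CPM in Control and 20.6, 20.6 and 20.2 CPM in NNK (1.22 ± 0.10, adjusted p = 1.84e-05). The amino acid transporter gene Slc6a20a was at 3.87, 6.32 and 5.10 CPM in Control and 23.6, 20.1 and 30.2 CPM in NNK (2.26 ± 0.27, adjusted p = 0.000481). In Cpne2 the tumour libraries were almost equal. The receptor tyrosine kinase gene Ros1 was at 4.63, 6.00 and 4.33 CPM in Control and 42.4, 20.2 and 22.5 CPM in NNK (2.50 ± 0.40, adjusted p = 0.00314), the siderophore-binding protein gene Lcn2 at 104, 70.4 and 93.2 CPM in Control and 462, 205 and 500.3 CPM in NNK (2.13 ± 0.40, adjusted p = 0.00628), and the arginase gene Arg2 at 6.07, 4.02 and 6.13 CPM in Control and 30.5, 22.7 and 21.9 CPM in NNK (2.21 ± 0.36, adjusted p = 0.00356). The matrix gene Ltbp2, of the family named latent TGF-beta binding proteins, was at 35.1, 36.8 and 50.5 CPM in Control and 125, 85.8 and 131 CPM in NNK (1.48 ± 0.20, adjusted p = 0.0013). Gdnf, a neurotrophic factor gene, was at 5.92, 6.77 and 5.55 CPM in Control and 14.4, 10.7 and 15.8 CPM in NNK (1.16 ± 0.17, adjusted p = 0.00178). In each of these genes every tumour library was above every Control library. The sialyltransferase gene St8sia6 (2.51 ± 0.37, adjusted p = 0.00206) and the fructose bisphosphatase gene Fbp2 (2.28 ± 0.40, adjusted p = 0.00475) were also higher.

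The immunoglobulin A constant gene Igha was at 42.1, 53.1 and 63.3 CPM in Control and 521, 411 and 813 CPM in NNK (3.46 ± 0.56, adjusted p = 0.00366), a pattern shared by the joining chain gene Igj. Of 160 immunoglobulin variable segments tested 3 were called higher and none lower, with a median log2 change of 2.21. Reads of such segments may be shared between near-identical copies.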
